A study of Mus musculus with 6 samples.

Results

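Genes of spermatogonial stem cells and of their first differentiation steps were followed in the testes of 6 cadmium-treated male mice. The set holds 37 genes chosen by symbol, 23 linked to stem and undifferentiated spermatogonia, 8 to differentiating spermatogonia and 6 that are expressed across several germ cell stages or were placed in neither class. The table gives values for 27 of the 37 members, among 14000 genes in all. H+H+Cd males (HFD2D in the study's text) came from fathers and grandfathers that had both been kept on a high-fat diet, and H+Cd males (HFD1D) from fathers alone on that diet, with 3 testes in each group. All mice were wild-type C57BL/6N, the diet was given to the forefathers from week 5 to week 15 of life, and all mothers ate normal chow. Both groups drank cadmium chloride, a testicular toxicant, for 10 weeks and were killed at 15 weeks of age. H+H+Cd males are also 1 generation later, so that generation and diet history cannot be told apart, and mice without cadmium or without a paternal high-fat diet were not analysed here. Levels are in FPKM, that is, fragment numbers corrected for the length of the transcript and for the size of the library.

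Spermatogonial stem cells sit on the basement membrane of the seminiferous tubule and either renew themselves or give rise to progenitors. Renewal depends on GDNF from somatic cells, which acts through the receptor pair of GFRA1 and RET and turns on genes such as Etv5, Bcl6b, Lhx1 and Id4. Under retinoic acid the progenitors become differentiating spermatogonia, which carry the receptor KIT and later enter meiosis. Several members are also expressed in Sertoli cells or in later germ cells, and in RNA of a whole testis fewer cells of a type and less RNA per cell cannot be told apart.

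No member passed the test of H+H+Cd against H+Cd testes. Of 26 members tested, 19 had lower and 7 had higher values in H+H+Cd testes, and the median of their log2 fold changes was -0.04, against 0.0007 over all 13769 genes tested. A negative value was found in 73.1% of the members and 49.8% of all genes. The test was limma on log2(FPKM + 1) with Benjamini-Hochberg adjustment over all genes, and adjusted p of the members ran from 0.382 to 0.998. It called 0 members and 1 of all genes (0.00726%). An unadjusted p under 0.05 was found for 3 members (11.5%, Id4, Sohlh1 and Dazl), against 11.9% of all genes, a share near the background. All 3 were lower in H+H+Cd testes, as were 6.59% of all genes, and 0 were higher, against 5.31%.

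In 5 members (19.2%) all 3 H+H+Cd testes lay below all 3 H+Cd testes, against 11.0% of all genes, and 0 members were separated the other way, against 8.34% of all genes. The 5 were the stem genes Id4 and Zbtb16, the differentiation genes Kit and Sohlh1, and Dazl. The count of members with an unadjusted p under 0.05 was 0 without H+Cd replicate 3 or without H+H+Cd replicate 3, and 1 without H+H+Cd replicate 1.

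The sequences behind the results are given first, for 2 genes whose listed transcripts differ in a coding exon and for 2 of the separated members. Tcf3 encodes the E proteins, partners of tissue-specific transcription factors of the basic helix-loop-helix class, and its transcripts use 1 of 2 alternative exons for that domain. One exon of 227 bases lies at chr10:80410398-80410624 and the other of 236 bases at chr10:80412827-80413062, both on the minus strand of mm10 and both coding. Over 227 aligned bases 77.1% were identical, and capitals mark the bases that differ or have no partner.
Tcf3 exon of 227 bases: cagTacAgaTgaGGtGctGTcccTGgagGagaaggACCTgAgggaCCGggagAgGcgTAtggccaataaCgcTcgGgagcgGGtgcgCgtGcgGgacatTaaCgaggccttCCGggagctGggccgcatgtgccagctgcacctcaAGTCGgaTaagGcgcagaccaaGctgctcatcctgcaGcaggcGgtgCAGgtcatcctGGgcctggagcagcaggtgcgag
Tcf3 exon of 236 bases: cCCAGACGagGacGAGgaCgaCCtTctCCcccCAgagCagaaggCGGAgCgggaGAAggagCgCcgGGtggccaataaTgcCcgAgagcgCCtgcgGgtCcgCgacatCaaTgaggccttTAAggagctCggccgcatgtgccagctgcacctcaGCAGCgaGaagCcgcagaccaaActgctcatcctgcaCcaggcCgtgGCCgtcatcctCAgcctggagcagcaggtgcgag
The 2 listed Kit transcripts differ by 12 coding bases at chr5:75639147-75639158 on the plus strand of mm10, at the end of an exon that encodes the part of the receptor outside the cell. They are shown in capitals with 30 bases of spliced mRNA on either side, beside the same junction without them.
Kit ENSMUST00000005815: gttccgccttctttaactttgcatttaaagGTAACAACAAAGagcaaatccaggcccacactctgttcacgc
Kit ENSMUST00000144270: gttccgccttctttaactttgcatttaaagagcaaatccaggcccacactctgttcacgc
Of the members with a value, 19 of 27 had a promoter in the RefSeq table. The 250 bases before the start site are printed for the separated members whose window held no annotated exon, with capitals at each CANNTG, the E-box that basic helix-loop-helix factors such as SOHLH1 and TCF3 bind (its reverse complement is again CANNTG, so 1 strand was searched).
Sohlh1, chr2:25847249-25847498, minus strand, GRCm38.p6: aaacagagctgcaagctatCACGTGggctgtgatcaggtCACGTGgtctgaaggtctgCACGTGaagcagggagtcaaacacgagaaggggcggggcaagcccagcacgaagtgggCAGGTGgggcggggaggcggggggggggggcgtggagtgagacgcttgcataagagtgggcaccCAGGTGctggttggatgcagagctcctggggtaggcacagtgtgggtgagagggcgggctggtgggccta
Id4, chr13:48260866-48261115, plus strand, GRCm38.p6: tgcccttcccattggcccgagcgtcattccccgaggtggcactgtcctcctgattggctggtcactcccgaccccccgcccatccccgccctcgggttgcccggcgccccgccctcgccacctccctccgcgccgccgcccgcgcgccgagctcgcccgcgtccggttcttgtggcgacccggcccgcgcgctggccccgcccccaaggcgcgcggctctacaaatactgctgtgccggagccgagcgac
The Sohlh1 window held 5 CANNTG matches, of which 3 were CACGTG and 2 were CAGGTG, and the Id4 window held 0. CANNTG occurred in 66.2% of all 32851 promoter windows of this length and in 12 of the 19 member windows, CACGTG in 6.02% and 3, and CACCTG or CAGGTG in 17.2% and 1. A match is a description of the letters and not evidence of binding.

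The levels of the members spanned a wide range. Dmrtb1 was the most abundant at a mean of 263 FPKM over the 6 testes (rank 190 of 14000 genes), followed by Dazl at 66.7, Tex14 at 27.5 and Id4 at 16.6 FPKM. A mean of 10 FPKM or more was reached by 7 members, 14 lay between 1 and 10, and 6 lay under 1 FPKM, all of them stem genes (Lin28a, Zbtb16, Gfra1, Lhx1, Sall4 and Utf1). Utf1, a chromatin factor of undifferentiated spermatogonia, had 0.108, 0.465 and 0.542 FPKM in H+H+Cd testes and 0.4, 0.337 and 0.236 FPKM in H+Cd testes, and was left out of the test, which asked for a group mean above 0.5 FPKM. Annotated members with no listed transcript were Ret, Nanos2, Nanos3, Eomes, Pax7, Neurog3, Thy1, Cdh1 and Upp1, and Crabp1-as could not be matched to an identifier.

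**Figure D1:**
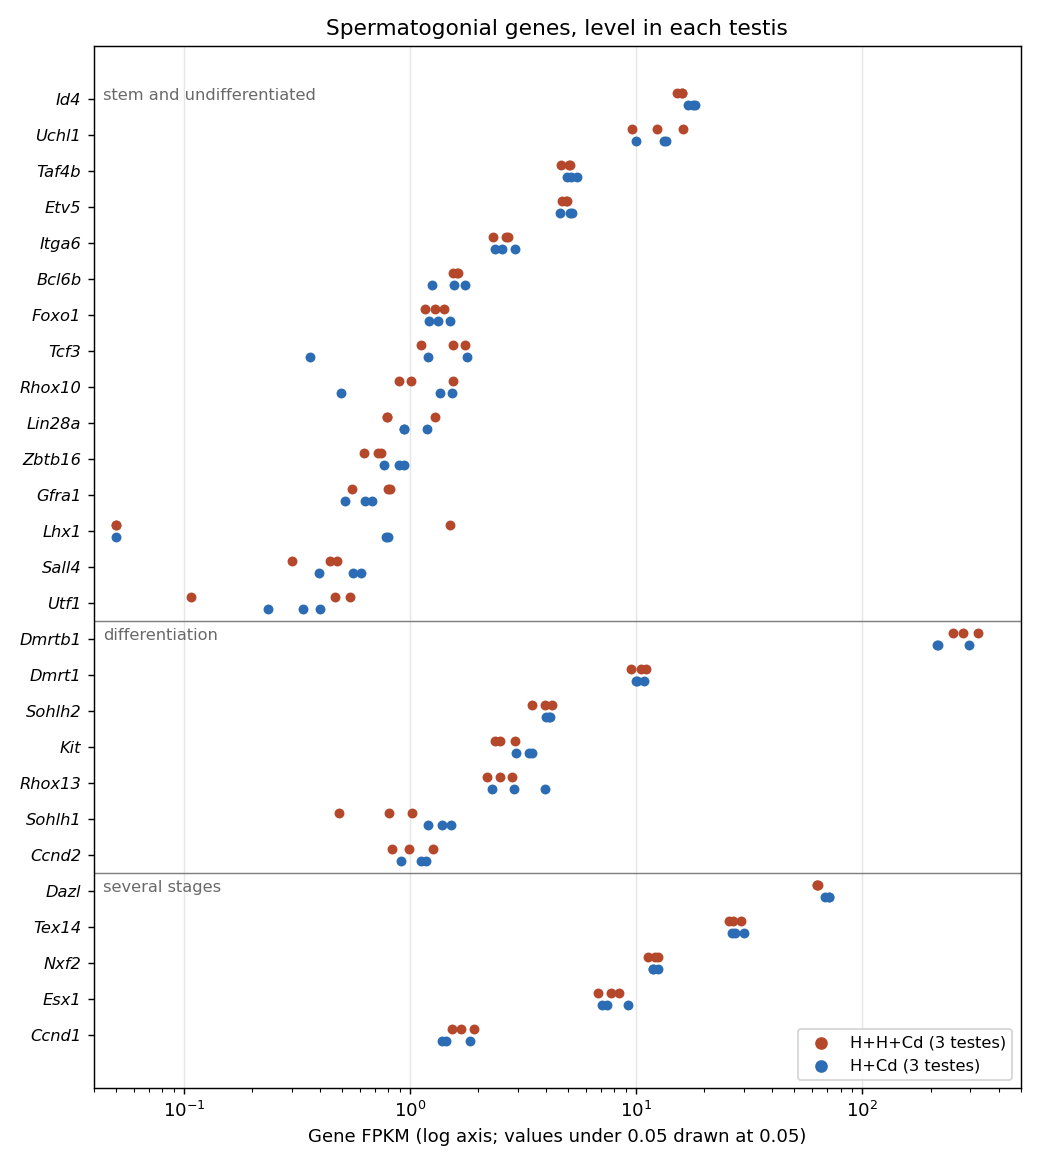
Level of each of the 27 members with a value (FPKM on a log axis), each dot 1 testis, with H+H+Cd above H+Cd for each gene and genes grouped by role. Dmrtb1 stands highest and 6 stem genes have a mean under 1 FPKM, and the dots of the groups overlap for all but Id4, Zbtb16, Kit, Sohlh1 and Dazl among the tested members.

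Id4 was the most abundant stem gene, and with Zbtb16 it was 1 of 2 stem genes whose groups were separated. Id4 encodes an inhibitor of helix-loop-helix factors that marks the stem cell pool, and is also expressed in Sertoli cells. It had 15.9, 15.9 and 15.1 FPKM in H+H+Cd testes and 16.9, 18.1 and 17.8 FPKM in H+Cd testes. The H+H+Cd mean was 88.9% of the H+Cd mean, and the log2 fold change was -0.16 (SE 0.064, 95% confidence interval -0.315 to -0.00492, limma adjusted p = 0.412). The gene spans chr13:48261228-48266026 (plus strand, mm10).

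Gfra1, the GDNF-binding receptor of stem cells, was low in every testis. It had 0.812, 0.553 and 0.8 FPKM in H+H+Cd testes and 0.632, 0.517 and 0.677 FPKM in H+Cd testes. The groups overlapped, and the log2 fold change was 0.10 with a 95% interval of -0.173 to 0.365. Etv5 and Bcl6b, transcription factors that GDNF turns on, averaged 4.83 ± 0.122 and 1.6 ± 0.0401 FPKM in H+H+Cd testes and 4.97 ± 0.31 and 1.52 ± 0.25 FPKM in H+Cd testes (SD, n = 3 each). Lhx1, a further GDNF target, was listed at 0 in 2 of 3 H+H+Cd testes and 1 of 3 H+Cd testes, and at 1.5 FPKM in the remaining H+H+Cd testis and 0.779 and 0.798 FPKM in the remaining H+Cd testes. Its interval, -1.15 to 0.914, was the widest of all members.

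Zbtb16, also called Plzf, encodes a zinc-finger repressor that keeps spermatogonia undifferentiated. It had 0.627, 0.745 and 0.724 FPKM in H+H+Cd testes and 0.89, 0.939 and 0.769 FPKM in H+Cd testes. The highest H+H+Cd testis and the lowest H+Cd testis were close, and the interval around the log2 fold change of -0.14 included 0 (-0.368 to 0.0979, limma adjusted p = 0.596). Sall4, a zinc-finger partner of ZBTB16, averaged 0.406 ± 0.0925 FPKM in H+H+Cd testes and 0.521 ± 0.11 FPKM in H+Cd testes (SD, n = 3 each), with overlapping groups.

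The other stem members showed small differences in both directions. Foxo1, a regulator of stem cell maintenance, had a log2 fold change of -0.04, and Taf4b, a germ cell subunit of the general transcription machinery, of -0.06. Lin28a, which binds let-7 precursors, had -0.05, and Itga6, the laminin-binding integrin used to enrich stem cells, -0.02. Uchl1, a deubiquitinase of spermatogonia, had 0.03 and Rhox10, an X-linked homeobox gene, 0.04. The groups of these 6 genes overlapped. Foxo1 ran from 1.16 to 1.41 FPKM in H+H+Cd testes and from 1.21 to 1.5 FPKM in H+Cd testes. Taf4b ran from 4.66 to 5.07 FPKM in H+H+Cd testes and from 4.96 to 5.46 FPKM in H+Cd testes, and Itga6 from 2.32 to 2.72 FPKM in H+H+Cd testes and from 2.36 to 2.92 FPKM in H+Cd testes. Lin28a spanned more, from 0.786 to 1.29 FPKM in H+H+Cd testes and from 0.938 to 1.18 FPKM in H+Cd testes. Uchl1 and Rhox10 also varied within groups, from 9.59 to 16.1 FPKM for Uchl1 in H+H+Cd testes and from 0.493 to 1.53 FPKM for Rhox10 in H+Cd testes.

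Among the differentiation genes, Sohlh1 had the most negative log2 fold change of any member. Sohlh1 encodes a basic helix-loop-helix factor that is needed for spermatogonia to differentiate. It had 0.805, 1.02 and 0.484 FPKM in H+H+Cd testes and 1.51, 1.2 and 1.39 FPKM in H+Cd testes. The H+H+Cd mean was 56.2% of the H+Cd mean, and on the log2 scale of FPKM + 1, which understates changes of low genes, the fold change was -0.43 (SE 0.142, 95% confidence interval -0.773 to -0.086, limma adjusted p = 0.39). The methods of the study ask for an F-test with a p under 0.05 and a fold above 1.2, while its results text speaks of an adjusted p. These thresholds were applied to FPKM + 1 with the unadjusted p. On that scale low genes reach a given fold less easily. Under these thresholds 1 member, Sohlh1, was called, against 4.82% of all genes. The gene spans chr2:25842995-25847248 (minus strand, mm10). Its partner Sohlh2 had 3.47, 4.25 and 3.96 FPKM in H+H+Cd testes and 4.14, 3.97 and 4.09 FPKM in H+Cd testes, with overlapping groups.

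Kit encodes the receptor for stem cell factor, which marks the step into differentiation. It had 2.37, 2.92 and 2.51 FPKM in H+H+Cd testes and 3.35, 2.94 and 3.46 FPKM in H+Cd testes. H+H+Cd replicate 2 and H+Cd replicate 2 were almost level, and the H+H+Cd mean was 79.9% of the H+Cd mean. The log2 fold change was -0.24 (SE 0.104, 95% confidence interval -0.492 to 0.00934, limma adjusted p = 0.431). The gene spans chr5:75574916-75656722 (plus strand, mm10).

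**Figure D2:**
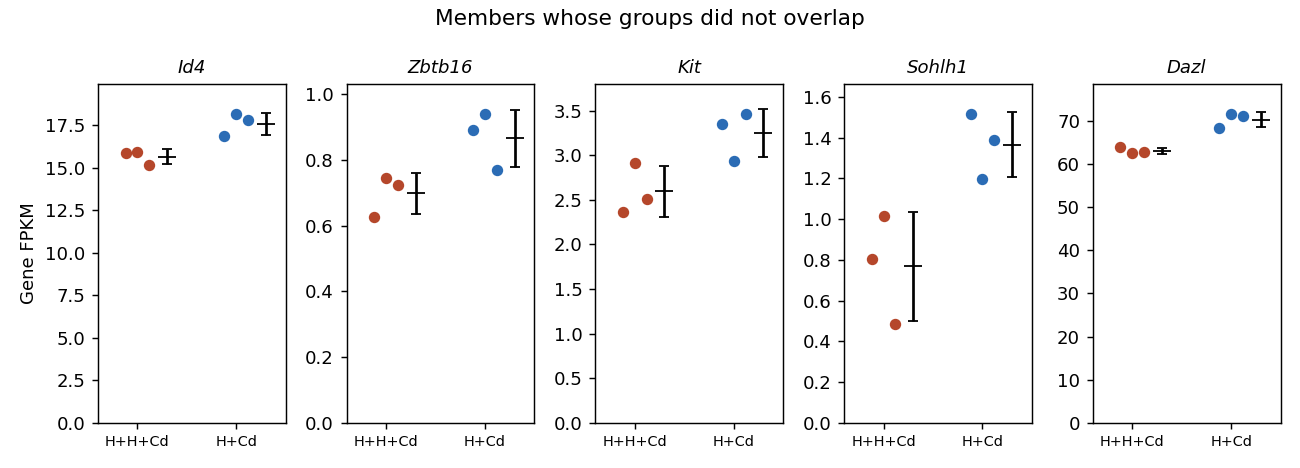
FPKM of the 5 members whose groups did not overlap, each coloured dot 1 testis, with the mean and SD of each group in black (n = 3). Relative to its level, Sohlh1 shows the widest gap between group means (0.768 FPKM in H+H+Cd and 1.37 FPKM in H+Cd testes), and in Kit and Zbtb16 the nearest testes of the groups almost touch.

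Dmrtb1, a DM-domain factor at the end of the spermatogonial programme, leaned the other way. It had 251, 324 and 278 FPKM in H+H+Cd testes and 297, 217 and 214 FPKM in H+Cd testes, so that H+Cd replicate 1 lay among the H+H+Cd testes (log2 fold change 0.24, 95% confidence interval -0.138 to 0.615). Dmrt1, a DM-domain factor of spermatogonia and Sertoli cells, averaged 10.3 ± 0.776 FPKM in H+H+Cd testes and 10.3 ± 0.426 FPKM in H+Cd testes (SD, n = 3 each). Its interval, -0.198 to 0.197, leaves out a 1.5-fold difference in FPKM + 1 in either direction. Ccnd2, a cyclin of differentiating spermatogonia, ran from 0.835 to 1.26 FPKM in H+H+Cd testes and from 0.911 to 1.18 FPKM in H+Cd testes. Rhox13, an X-linked homeobox gene of differentiating spermatogonia, had 2.83, 2.5 and 2.18 FPKM in H+H+Cd testes and 2.29, 2.88 and 3.95 FPKM in H+Cd testes, with overlapping groups.

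Of the members expressed over several stages, Dazl was the only one that was separated. Dazl encodes an RNA-binding protein that germ cells need from the embryo to meiosis. It had 63.9, 62.7 and 62.7 FPKM in H+H+Cd testes and 68.3, 71.5 and 71 FPKM in H+Cd testes. Its log2 fold change of -0.15 was small but had a narrow interval (SE 0.0499, 95% confidence interval -0.274 to -0.0325, limma adjusted p = 0.382). The gene spans chr17:50279395-50293636 (minus strand, mm10). Tex14, which builds the intercellular bridges between germ cells, had a log2 fold change of -0.04, the RNA export factor Nxf2 of -0.01, the homeobox gene Esx1 of -0.04 and the cyclin Ccnd1 of 0.08, all with overlapping groups. Tex14 ran from 25.7 to 28.9 FPKM in H+H+Cd testes and from 26.6 to 29.9 FPKM in H+Cd testes, and Nxf2 from 11.3 to 12.5 FPKM in H+H+Cd testes and from 11.8 to 12.5 FPKM in H+Cd testes. Esx1 spanned 6.78 to 8.36 FPKM in H+H+Cd testes and 7.03 to 9.15 FPKM in H+Cd testes, and Ccnd1, which is also a general cell cycle gene, 1.52 to 1.92 FPKM in H+H+Cd testes and 1.38 to 1.84 FPKM in H+Cd testes.

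Stem genes were then set beside differentiation genes. The 14 stem members tested had 9 lower and 5 higher values in H+H+Cd testes and a median difference of -0.04 on the log2 scale. The 7 differentiation members tested had 6 lower and 1 higher and a median of -0.05. With 1 library left out, the stem median ran from -0.057 to 0.0066 and the differentiation median from -0.11 to -0.043. The ends at 0.0066 and -0.11 both came without H+H+Cd replicate 1. The mean of log2(FPKM + 1) over the stem members minus that over the differentiation members was -1.14, -1.2 and -1.01 in H+H+Cd testes and -1.30, -1.08 and -1.23 in H+Cd testes, so the balance between the classes overlapped between groups. Over all 7 differentiation members the mean of log2(FPKM + 1) overlapped, at 2.72 to 2.85 in H+H+Cd testes and 2.82 to 2.92 in H+Cd testes. The balance includes Dmrtb1, the most abundant differentiation member and the 1 with a higher value. Without Dmrtb1 the others summed to 20.2 to 22.0 FPKM in H+H+Cd testes and 22.2 to 23.8 FPKM in H+Cd testes. Those sums had no overlap, but they leave out the member that went the other way. Stem members with a value, without Id4, summed to 31.6 to 37.8 FPKM in H+H+Cd testes and 33.3 to 34.6 FPKM in H+Cd testes, and overlapped. These sums were not tested. The 95% confidence interval lay within a 1.5-fold difference in FPKM + 1 in both directions for 11 of 14 stem members, 4 of 7 differentiation members and 5 of 5 of the others.

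**Figure D3:**
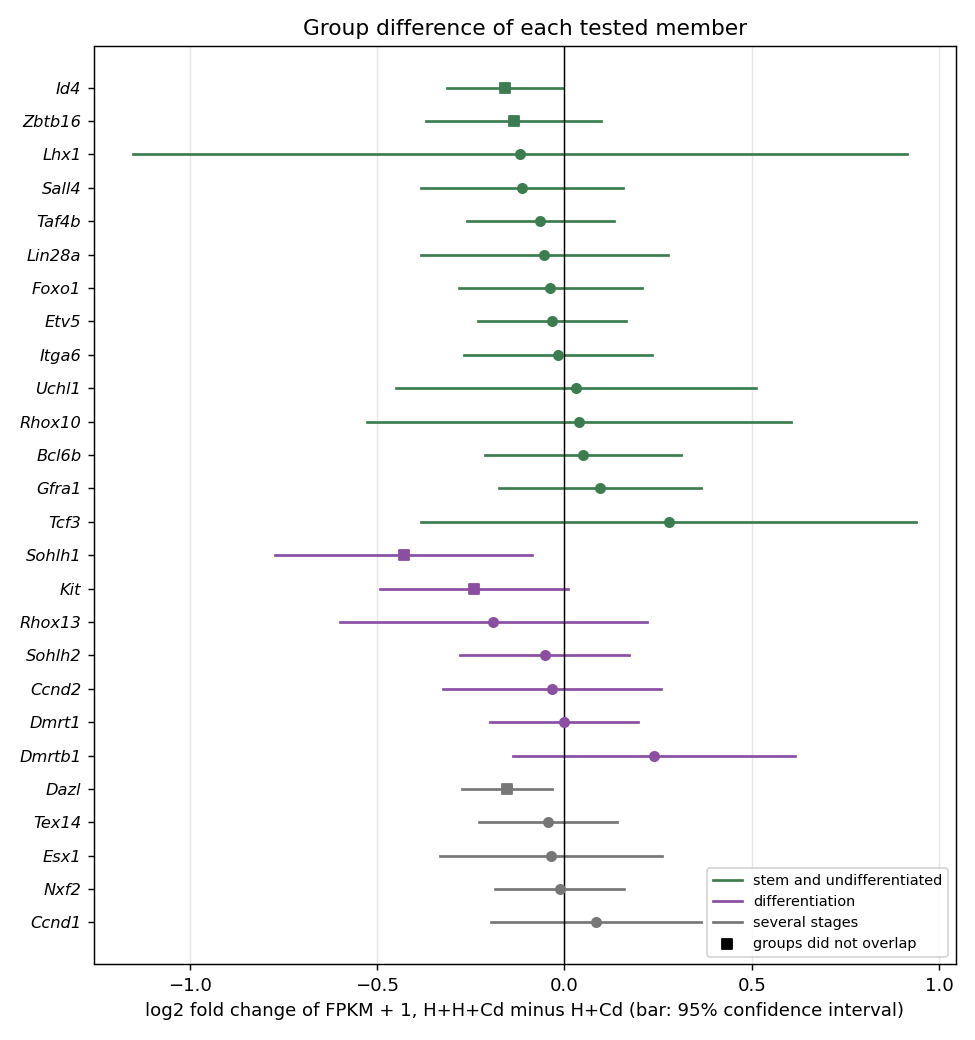
Log2 fold change of FPKM + 1 (H+H+Cd minus H+Cd) of each of the 26 tested members with its 95% confidence interval, by role, squares for members whose groups did not overlap. Most points lie within 0.2 of 0, Sohlh1 at -0.43 is the lowest and Tcf3 at 0.28 the highest.

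Transcripts were tested next, since a gene sum can hide a change in which transcript is used. The 27 members have 37 listed transcripts, 21 members with 1 and 6 with more. Of 35 transcripts tested, 0 passed, against 33 of 25322 over all genes (0.13%), and 3 had an unadjusted p under 0.05, against 8.24% of all transcripts. Of those 3, the single transcripts of Dazl and Sohlh1 were lower and a transcript of Tcf3 was higher in H+H+Cd testes, against 4.31% lower and 3.93% higher over all transcripts. The transcripts of Dazl, Id4, Sohlh1 and Zbtb16 (4 of 35) were separated as lower and 1, of Tcf3, as higher, against 8.62% and 7.29% of all transcripts.

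Tcf3 as a gene had 1.75, 1.55 and 1.12 FPKM in H+H+Cd testes and 1.2, 1.79 and 0.359 FPKM in H+Cd testes. ENSMUST00000105345, which holds the 227-base exon printed above, had 1.59, 1.53 and 1.12 FPKM in H+H+Cd testes, and in H+Cd testes was listed at 0 in replicates 1 and 2 and had 0.333 FPKM in replicate 3. Its log2 fold change was 1.13 (SE 0.185, 95% confidence interval 0.666 to 1.59, limma adjusted p = 0.272), so it did not pass over all transcripts. It was among the 5.2% of transcripts that met the thresholds of the study. ENSMUST00000105346, which holds the 236-base exon, was listed at 0 in every H+H+Cd testis, and in H+Cd testes had 0.819 and 1.79 FPKM in replicates 1 and 2 and was listed at 0 in replicate 3 (adjusted p = 0.612). Summed over the 3 listed transcripts by exon, the 236-base form had 0.164, 0.0189 and 0 FPKM in H+H+Cd testes and 1.2, 1.79 and 0.0262 FPKM in H+Cd testes. The 227-base form was thus the main one in all 3 H+H+Cd testes and in H+Cd replicate 3, and the 236-base form in H+Cd replicates 1 and 2. Only 3 of 14 annotated Tcf3 transcripts are listed, and how much of this lies in the assignment of fragments to similar transcripts was not tested.

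Kit and Dmrtb1 also split unevenly between transcripts, with a wide and overlapping spread in both groups. The Kit transcript with the 12 bases had 1.1, 2.17 and 2.38 FPKM in H+H+Cd testes and 2.53, 0 and 3.44 FPKM in H+Cd testes. The form without them had 1.27, 0.746 and 0.122 FPKM in H+H+Cd testes and 0.828, 2.94 and 0.0175 FPKM in H+Cd testes. Its share of Kit thus ran from 4.86% to 53.8% in H+H+Cd testes and from 0.506% to 100% in H+Cd testes, while the gene sum stayed between 2.37 and 3.46 FPKM. With only the more abundant transcript counted, the log2 fold change of Kit turned to 0.17. For Dmrtb1, ENSMUST00000069271, which starts further upstream, made up 43.3%, 4.22% and 30.7% of the gene in H+H+Cd testes and 4.36%, 53.3% and 38.0% in H+Cd testes. H+H+Cd replicate 2 and H+Cd replicate 1, where that share was lowest, were also the pair with the highest correlation over genes (Pearson's r = 0.985, range over all pairs 0.972 to 0.985). H+H+Cd replicate 3 and H+Cd replicate 1 were nearly as close (r = 0.983), with unlike shares of 30.7% and 4.36%. A link between the share and the correlation was not tested.

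**Figure D4:**
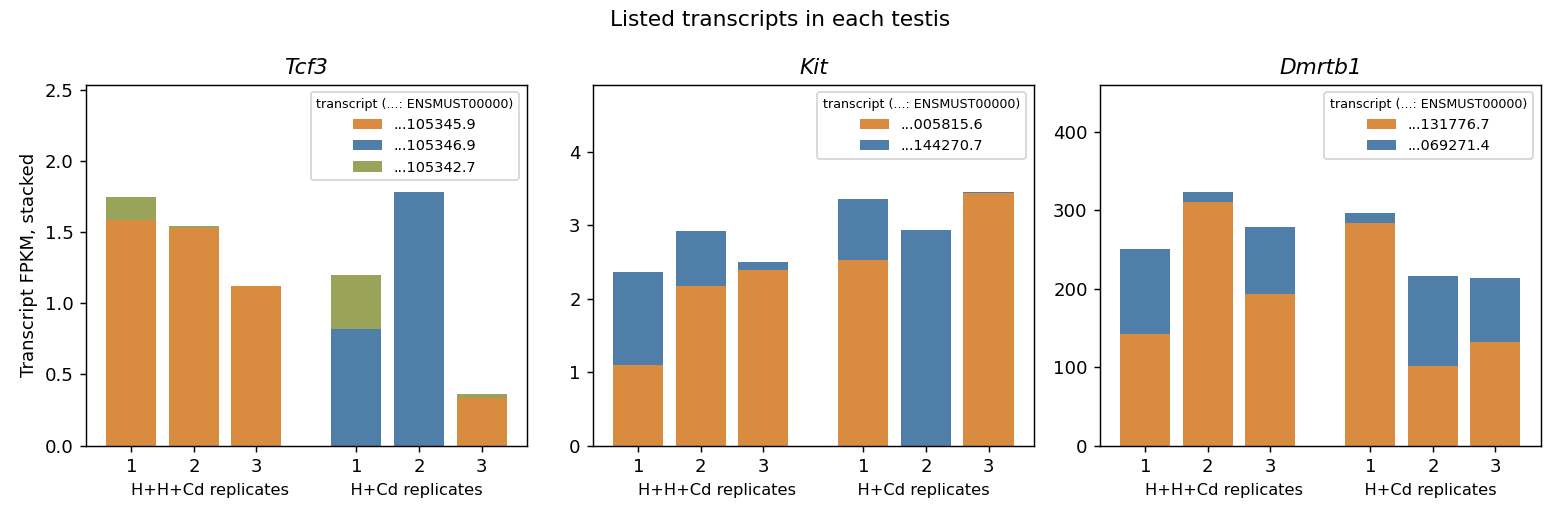
FPKM of the listed transcripts of Tcf3, Kit and Dmrtb1 in each testis, stacked, with the 3 H+H+Cd testes left of the 3 H+Cd testes. In Tcf3 the H+H+Cd testes hold mainly ENSMUST00000105345 (1.12 to 1.59 FPKM) and it is listed at 0 in 2 of 3 H+Cd testes, while in Kit and Dmrtb1 the split varies within both groups.

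The members lie on many chromosomes, and 4 of those with a value are on the X chromosome, which is silenced as germ cells enter meiosis. These were Rhox10, Rhox13, Nxf2 and Esx1, of which 3 had lower values in H+H+Cd testes, with a median of -0.02 on the log2 scale and 0 of 4 separated, against 19.4% of all genes in either direction.

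Genes around the stem cells and on either side of their programme were read from further lists. Of 22 symbols listed for signals and receptors of the niche, 1 (Gpr125) was not in the annotation and 11 were tested. Of those tested, 10 had higher and 1 had lower values in H+H+Cd testes (median 0.06, against 0.0007 over all genes), and 0 passed. Cxcl12, a chemokine that holds stem cells in the niche, had 6.11, 6.79 and 6.46 FPKM in H+H+Cd testes and 6.07, 3.52 and 3.80 FPKM in H+Cd testes (limma adjusted p = 0.398). Csf1r, the receptor for CSF1 and also a macrophage gene, averaged 2.13 ± 0.413 FPKM in H+H+Cd testes and 1.43 ± 0.0565 FPKM in H+Cd testes (SD, n = 3 each). Kitl, the ligand of KIT, had a log2 fold change of 0.02, and Gdnf has no listed transcript. Of 15 other tested genes linked to undifferentiated spermatogonia, 12 were higher and 3 lower (median 0.07) with 0 past the test. The list is not specific to these cells: Ddx4, at a mean of 213 FPKM, serves in the study as a marker of testicular germ cells. Ddx4 itself was among the 3 lower genes (log2 fold change -0.04). The part of undifferentiated spermatogonia in the direction of the list was not tested. Ddit4, an inhibitor of mTORC1, had 3.08, 3.09 and 2.29 FPKM in H+H+Cd testes and 1.77, 1.69 and 2.06 FPKM in H+Cd testes.

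Of 16 tested genes of the entry into meiosis, the step that follows, 13 had lower and 3 higher values in H+H+Cd testes (median -0.08), 5 were separated as lower and 0 as higher, and 0 passed. Over all genes 49.8% had a negative value, 11.0% were separated as lower and 8.34% as higher. The mean of log2(FPKM + 1) over the 16 overlapped, at 5.11 to 5.25 in H+H+Cd testes and 5.19 to 5.30 in H+Cd testes. Meiob, a recombination factor, had 17.1, 15.6 and 16.8 FPKM in H+H+Cd testes and 19.0, 18.8 and 21.4 FPKM in H+Cd testes (limma adjusted p = 0.377). Sycp1, of the synaptonemal complex, had 149, 154 and 143 FPKM in H+H+Cd testes and 157, 167 and 170 FPKM in H+Cd testes (limma adjusted p = 0.399), and Sycp3 a log2 fold change of -0.31. The 3 higher genes were Syce1, the most abundant of the list, Rec8 and Tex101, with log2 fold changes of 0.09, 0.13 and 0.06.

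Markers of other cells were measured beside these values. Over all genes 49.8% had a negative log2 fold change. All 11 spermatocyte markers were listed, with 7 of 11 lower in H+H+Cd testes, and summed to 2809 to 2908 FPKM in H+H+Cd testes and 2940 to 3489 FPKM in H+Cd testes. Ldhc, a lactate dehydrogenase of germ cells, made up much of that gap, and without it the sums overlapped, at 1342 to 1387 FPKM in H+H+Cd testes and 1376 to 1433 FPKM in H+Cd testes. The mean of log2(FPKM + 1) over all 11, which weights genes equally, ran from 6.65 to 6.73 in H+H+Cd testes and from 6.81 to 6.88 in H+Cd testes, with no overlap. Of 11 round spermatid markers 6 were lower, and of 11 elongating spermatid markers 7. The mean of the round spermatid markers overlapped, at 6.52 to 6.58 in H+H+Cd testes and 6.51 to 6.57 in H+Cd testes. That of the elongating spermatid markers overlapped as well, at 10.01 to 10.06 in H+H+Cd testes and 9.84 to 10.07 in H+Cd testes. The 18 listed Sertoli markers of 19, 10 of them lower, summed to 686 to 721 FPKM in H+H+Cd testes and 723 to 748 FPKM in H+Cd testes. Without Clu, the most abundant of them, the sums overlapped, at 452 to 471 FPKM in H+H+Cd testes and 466 to 497 FPKM in H+Cd testes. Over all 18 the mean of log2(FPKM + 1) overlapped as well and was on average 0.03 higher in H+H+Cd testes. The 13 listed macrophage markers of 15, 11 of them higher, summed to 62.1 to 83.6 FPKM in H+H+Cd testes and 57.1 to 67.1 FPKM in H+Cd testes. The highest sum was that of H+H+Cd replicate 1, and H+H+Cd replicates 2 and 3 had 62.1 and 70.3 FPKM. Of 10 peritubular myoid markers 9 were higher (median 0.16 on the log2 scale), and 3 were separated as higher, against 8.34% of all genes. Their mean of log2(FPKM + 1) did not overlap, at 2.82 to 2.90 in H+H+Cd testes and 2.55 to 2.76 in H+Cd testes. Of 10 Leydig markers 8 were higher, with a median of 0.09, and their mean of log2(FPKM + 1) overlapped, at 4.33 to 4.48 in H+H+Cd testes and 3.87 to 4.52 in H+Cd testes. The part of these cells in the values of Id4, Dazl and the other separated members was not tested. H+H+Cd replicate 1 held 86.1 FPKM of the epididymal gene Crisp1, against at most 0.293 FPKM in any other testis. Without that testis Id4, Zbtb16, Kit, Sohlh1 and Dazl had log2 fold changes of -0.17, -0.10, -0.20, -0.45 and -0.16, and 0 members passed.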

How the data were processed

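Poly(A) RNA of 6 testes was sequenced from stranded libraries on an Illumina NovaSeq instrument. The authors assembled values with StringTie against known transcripts, exported them with Ballgown and deposited FPKM for 27120 transcripts. The submitters' processing notes name the build mm10, with aligner and versions not given in the sources used here. Library depth is unknown: the table holds no counts, and values down to 1e-06 FPKM do not fall into whole reads. Summed FPKM ran from 382815 to 397147 per library.

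Identifiers were matched without version to GENCODE M21 (27018 matched, 99.62%), and FPKM was summed over the listed transcripts of each of 14000 genes. Features with a mean above 0.5 FPKM in at least 1 group were tested on log2(FPKM + 1) with limma 3.58.1 in R 4.3.3 (variance trend, group only, two-sided), adjusted by Benjamini-Hochberg at 0.05 over all genes or all transcripts. A 95% interval is limma's. Scripts were tested on simulated data. The labels do not say that replicates share a litter or day, and the study states that 1 male was taken from each litter. The p-values set the difference between groups against the spread between animals within groups. The members and lists were chosen with earlier results of these data known. Values in each testis were printed for members with an unadjusted p under 0.05 or separated groups, for Zbtb16, Kit and Gfra1, for the most abundant member of each class, and for others where a sentence needs them, chosen after their values were seen. Promoters are from RefSeq (GRCm38.p6), transcript sequences from GENCODE M21, and Tcf3 exons were aligned globally with Biopython 1.88.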

Additional observations from a re-analysis of the deposited data

How the results depend on the processing

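The number of members called was 0 under each alternative but the thresholds of the study, which called 1 (Sohlh1, and with them 663 of all genes and 1317 transcripts, among these ENSMUST00000105345 of Tcf3). Over all genes 1 was called, and 0 with no filter, with the adjusted F-test and with a replicate block, 3 with a filter at 1 FPKM, with median-ratio rescaling and without a variance trend, and 13 from the most abundant transcript of each gene. With 1 library left out this count ran from 0 to 3, that of transcripts from 11 to 86, and that of members with an unadjusted p under 0.05 from 0 to 3. With the block 1 transcript was called and 1 member had an unadjusted p under 0.05. The replicate numbers share only a number (correlations of deviations -0.0759, -0.00177 and -0.163), so a loss under the block is not read as a weaker effect. No scaling moved the median of all genes by 0.1.

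Of 26 members 11 kept their sign under every alternative that gave them a value, Id4, Zbtb16, Sohlh1 and Dazl among them. Up to 16 alternatives were run for a member, fewer for low genes such as Zbtb16 (15) and Sall4 (14), which the filter on low values then left out. For the other 15 members, Kit and Tcf3 included, the sign turned at least once, and the cause was not tested: Dmrt1 was 0.0061 with median-ratio rescaling and 0.013 with quantile normalization, under which Rhox10 was -0.012 and Nxf2 0.0082, and from the most abundant transcript alone Kit was 0.17 and Tex14 0.028. With 1 library left out, the log2 fold change ran from -0.030 to 0.11 for Bcl6b, -0.56 to 0.10 for Lhx1, -0.17 to 0.0066 for Lin28a, -0.080 to 0.0083 for Foxo1, -0.0097 to 0.51 for Tcf3, -0.15 to 0.20 for Uchl1, -0.20 to 0.18 for Rhox10, -0.068 to 0.043 for Itga6, -0.11 to 0.010 for Sohlh2, -0.045 to 0.054 for Dmrt1, -0.11 to 0.037 for Ccnd2, -0.090 to 0.0041 for Tex14, -0.043 to 0.025 for Nxf2 and -0.10 to 0.066 for Esx1. With depth unknown, members near 1 FPKM carry no counting interval.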
